A study of Homo sapiens with 9 samples.

Results

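Kelly and BE(2)C are established human neuroblastoma cell lines that both carry amplified MYCN, and their RNA was compared with each other. The 3 Kelly and 3 BE(2)C libraries were picked by the cell line named in the labels, and they make up 6 of the 9 libraries of the series. The remaining 3 come from SH-SY5Y, a line without the amplification. They entered the scaling, the gene filter and the model's estimate of spread between libraries, but neither of the means compared. Cells of both lines were untreated, grew in DMEM/F12:MEM with a supplement labelled IFS at 10%, and were harvested at 70% confluence; polyadenylated RNA from a Trizol extraction went into NEBNext Ultra libraries. Each group is a single line, and BE(2)C is a clonal subline of SK-N-BE(2), so what differs between the groups belongs to these lines and cannot be told apart from their separate origins and histories. Whether the libraries of a line were grown as separate cultures is not in the labels, and the p-values then reflect no more than the spread among the libraries, possibly technical.

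Neuroblastoma arises from precursors of the sympathetic nervous system, and amplification of MYCN, a MYC-family transcription factor, marks its high-risk form. The let-7 microRNAs, which the title of the series is about, repress growth genes such as MYCN, IGF2BP1 and HMGA2, while LIN28B blocks let-7 maturation. Neuroblastoma cells occupy adrenergic states, held by HAND2 and GATA3 and able to make catecholamines, or mesenchymal states that resemble neural crest and carry genes such as PRRX1, SNAI2 and CD44. The comparison shows how far 2 lines with the same MYCN genotype differ in these programmes.

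Let-7 itself was not measured, since the libraries hold polyadenylated long RNA, but its sequences are needed to read the genes of its axis and its loci on the chromosomes. The RefSeq table used here holds 12 let-7 and miR-98 loci with 9 different mature sequences on GRCh38.p14, and all of them share 1 seed, bases 2 to 8, shown in capitals. The 4 printed here come from the loci whose neighbourhoods are described most fully at the end: let-7a, let-7f and let-7d from a cluster at chr9:94175962-94178862 on the plus strand, let-7a again from chr11:122146568-122146589 on the minus strand, and let-7g from chr3:52268336-52268357 on the minus strand.
hsa-let-7a-5p: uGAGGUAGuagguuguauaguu
hsa-let-7f-5p: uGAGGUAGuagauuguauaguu
hsa-let-7d-5p: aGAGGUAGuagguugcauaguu
hsa-let-7g-5p: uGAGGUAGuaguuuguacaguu

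Levels are given as TPM, a share of all transcripts corrected for their length, rescaled to the gene entries and called scaled TPM; depth is unknown because TPM does not keep it. Differences are log2(Kelly) minus log2(BE(2)C) of scaled TPM + 1, which understates the change of low genes, with the standard error after the ± sign; levels carry the SD of 3 libraries. In brackets after a gene, log2 precedes this difference, and a pair joined by "against" gives the mean scaled TPM of the lines, the higher line first; 3 values in a row are libraries 1 to 3. Across genes, libraries of the same line correlated at a Pearson's r of 0.971 to 0.977 and libraries of different lines at 0.862 to 0.872, given as a description because genes are not independent replicates. Genes at 1 scaled TPM or more numbered 12119 ± 67.6 in Kelly and 11722 ± 151 in BE(2)C. The 13 mitochondrially encoded genes took 19.8, 16.6 and 16.5% of the gene total in Kelly and 24.5, 35.4 and 31.9% in BE(2)C. The lines did not overlap, and the exact two-sided permutation test gave p = 0.1, the smallest that 3 libraries against 3 allow. Spike-ins, synthetic RNA added to each sample, took 89.6 ± 0.949% of the deposited total in Kelly and 85.6 ± 1.14% in BE(2)C. Genes were left with 10.4 ± 0.948% and 14.4 ± 1.14%, and the lines did not overlap in either share. Whether the smaller gene share limits low and zero values more in Kelly was not tested. Whether all samples received the same mix was not tested either. The spike-ins also differed one by one: of 61 tested with limma, 54 were called (adjusted p under 0.05). With each library centred on its median spike-in, 6 were higher and 48 lower in Kelly, from a log2 difference of 0.41 for ERCC-00044 to -1.2 for ERCC-00014. Without centring 54 were called as well, but 40 were higher and 14 lower, from 0.83 to -0.78 for the same spike-ins, so the direction of most of them was set by the centring. Their ratios between a Kelly and a BE(2)C library had an SD of 0.304 to 0.356 in log2, and between a Kelly and an SH-SY5Y library of 0.314 to 0.370. Between BE(2)C and SH-SY5Y the SD was 0.058 to 0.096 and between libraries of either line compared here 0.058 to 0.099, so the Kelly libraries stood apart. A gene difference within 1.2 with centring, or 0.83 without, is no larger than one that a spike-in showed, and its share that is technical was not tested.

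**Figure D1:**
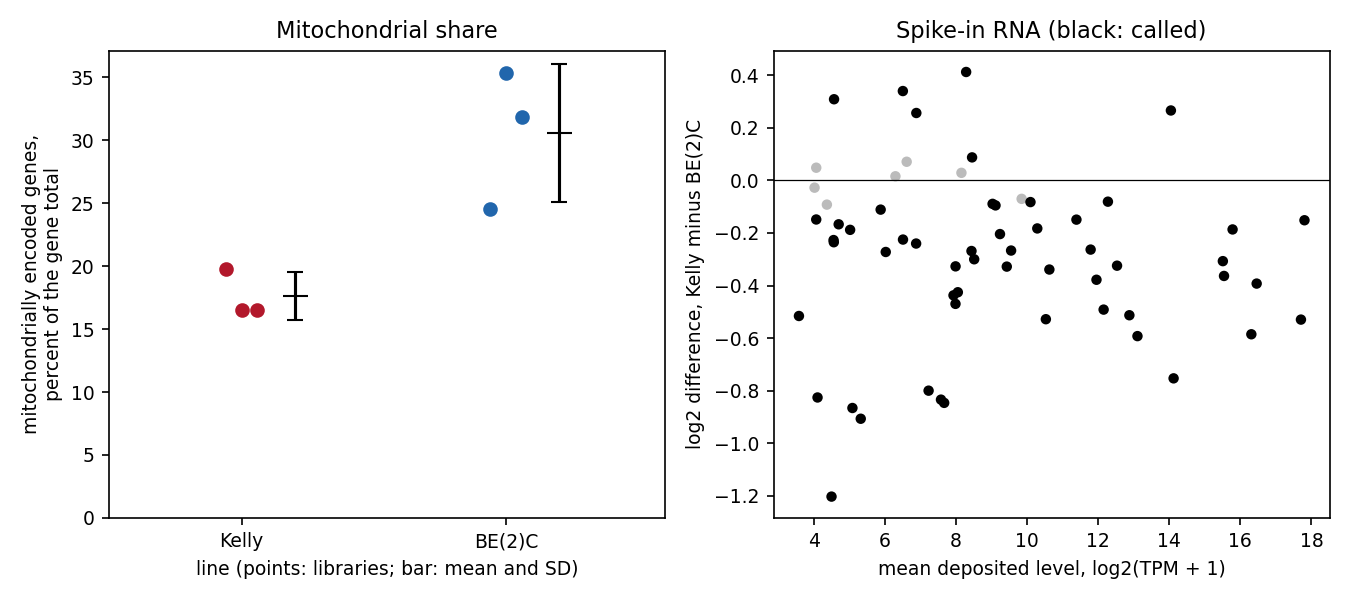
Left, mitochondrially encoded genes as a percent of the gene total in each library, with the mean and SD per line; the Kelly libraries lie between 16.5 and 19.8% and the BE(2)C libraries between 24.5 and 35.4%. Right, the log2 difference (Kelly minus BE(2)C, centred on the median spike-in of each library) of 61 spike-ins against their mean deposited level on a log2 scale, with the 54 called ones in black; 48 lie below 0 after this centring, and without it 40 lie above.

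MYCN transcript was abundant in both lines and did not differ beyond the spread. MYCN (chr2:15940564-15947007, plus strand of GRCh38, GENCODE 29 annotation, as for all gene positions here) stood at 5896, 5984 and 6051 scaled TPM in Kelly and 4809, 6551 and 6814 in BE(2)C. BE(2)C replicate 1 was the lowest of the 6 and replicates 2 and 3 the highest, so the groups overlapped, and the log2 difference was -0.0026 ± 0.12 (limma, Benjamini-Hochberg adjusted p = 0.991). SH-SY5Y, without the amplification, was at 27.3 ± 1.01. The MYCN result depended on scaling: its log2 difference was 0.32 (limma, adjusted p = 0.0239) with library totals in place of trimmed-mean factors, 0.62 (adjusted p = 0.00114) with quantile normalization and -0.16 (adjusted p = 0.0348) without BE(2)C replicate 1. MYC, the family member that non-amplified lines use, was near 0 in both lines, at 0.186, 0 and 0.103 in Kelly and 0.387, 0.706 and 0.420 in BE(2)C. With all 6 values under 1, it passed the gene filter only through SH-SY5Y. MYC was called lower in Kelly (log2 -0.45). Settings that ended this call included library totals and leaving out any 1 of the SH-SY5Y libraries.

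Around this shared MYCN level the genes of the let-7 axis leaned toward Kelly. Of 28 tested members of a list of MYC family, let-7 target and let-7 processing genes, 12 were higher and 6 lower in Kelly, with a median log2 difference of 0.30; the 6 became 3 without BE(2)C replicate 3 or Kelly replicate 2. Among all 13078 genes tested, 52.5% were called, 27.9% as higher in Kelly and 24.6% as lower, with a median of 0.02, and in 58.3% the 3 values of 1 line did not overlap those of the other. LIN28B, which blocks let-7 maturation, was close in the lines, at 101, 108 and 103 in Kelly and 85.2, 98.2 and 98.8 in BE(2)C, a difference of 0.14 ± 0.09 (limma, adjusted p = 0.198); with library totals it was 0.46 (adjusted p = 0.00329). IGF2BP1 (chr17:48997412-49055650, plus strand), an mRNA-binding protein whose long 3′ untranslated region carries let-7 sites, was at 376, 368 and 381 in Kelly and 113, 106 and 115 in BE(2)C. The 3 Kelly values were well above the 3 BE(2)C values, with a mean ratio of 3.37 and a log2 difference of 1.75 ± 0.08 (limma, adjusted p = 3.19e-07). NR6A1, an orphan nuclear receptor of germ and embryonic cells, was at 15.1, 15 and 16.9 against 1.07, 1.82 and 1.45, 10.8-fold higher in Kelly (log2 2.78 ± 0.18, adjusted p = 2.51e-06). TRIM71, a let-7 target of early embryos, was 5.98-fold higher (24.7 ± 2.23 against 4.13 ± 0.904).

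Smaller differences in the same direction were found for ARID3B (67.9 ± 0.912 in Kelly and 27.4 ± 2.83 in BE(2)C), IGDCC3 (log2 0.93), ARID3A (log2 0.87), IGF2BP3 (log2 0.70) and the chromatin protein HMGA1 (log2 0.57). HMGA2, a classical let-7 target, differed by 0.33 ± 0.32 and was not called (limma, adjusted p = 0.427; called at 0.72 without BE(2)C replicate 3), and neither was DICER1 (log2 -0.14) or DROSHA (log2 -0.06), the RNases of microRNA processing. ZCCHC6 (TUT7), a uridylyltransferase that acts on let-7 precursors, went the other way, at 5.09 in Kelly and 11.9 in BE(2)C (log2 -1.10 ± 0.18, limma adjusted p = 0.000743). The fetal growth factor IGF2 was at 1598 ± 208 and 1614 ± 345 (log2 difference 0.0018 ± 0.16, adjusted p = 0.997). DLK1, an imprinted NOTCH-related ligand of neuroblasts, was at 4405 and 2963 (log2 0.60 ± 0.18, adjusted p = 0.0215), a call lost without Kelly replicate 1 (0.51, limma adjusted p = 0.0756) and in a fit of these 6 libraries alone.

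The transcriptomes differed widely beyond MYCN. Of the 6864 genes called, 3649 were higher and 3215 lower in Kelly. Of the called genes, 910 (6.96% of those tested) were at least 4-fold apart, 567 of them higher in Kelly (4.34%) and 343 lower (2.62%), and 2210 (16.9%) exceeded the largest spike-in difference with centring and 3678 (28.1%) that without. The balance of the 2 directions moved with scaling: 53.2% of calls were higher in Kelly here, 74.3% with library totals, where the median of all genes shifted by 0.28, and 43.2% with the values as deposited. With library totals the members lower in Kelly numbered 3 in the let-7 list, 5 in the adrenergic, 3 in the cholinergic, 1 in the NOTCH, 6 in the axon guidance and 5 in the ion channel list described below. The spread between libraries of a line was small (median SD 0.180 in Kelly and 0.190 in BE(2)C on the log2 scale), so small differences passed as well.

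**Figure D2:**
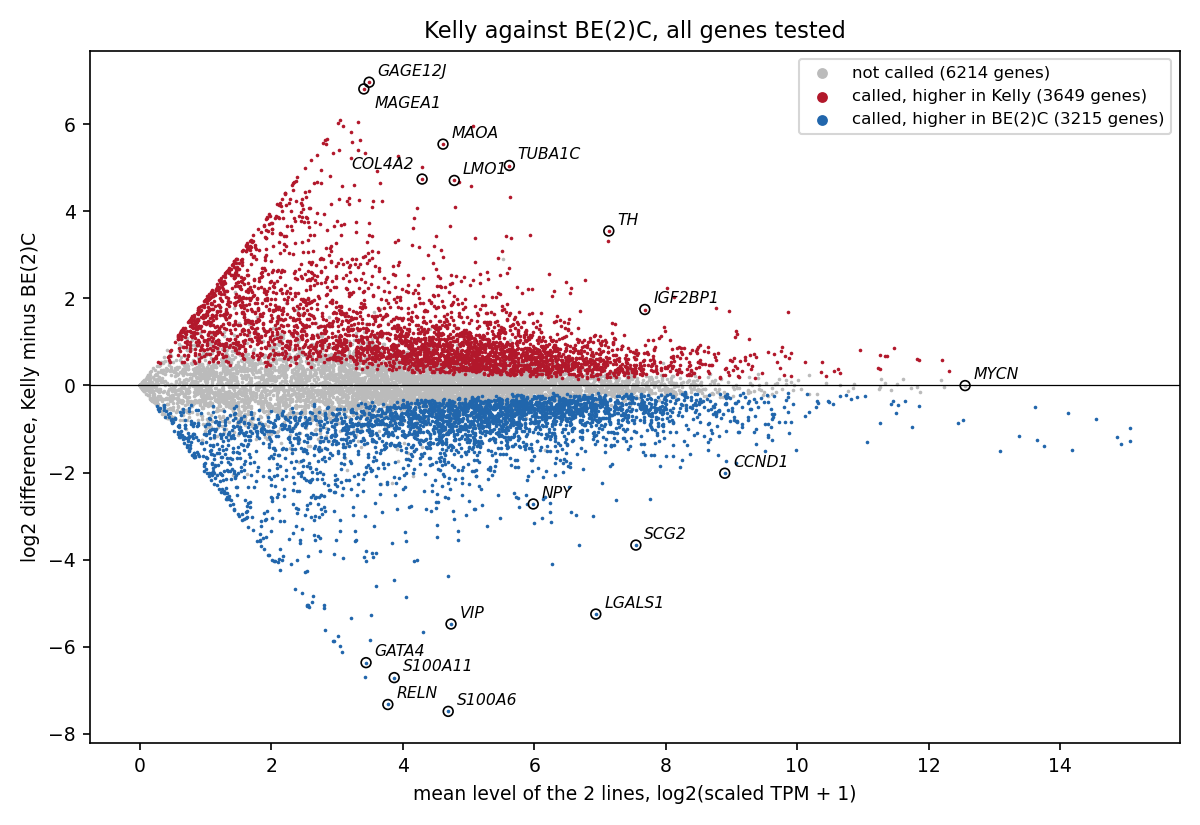
Log2 difference (Kelly minus BE(2)C) of 13078 genes against their mean level in the 2 lines, log2(scaled TPM + 1); red genes were called higher in Kelly, blue ones higher in BE(2)C, and circles mark genes named in the text. MYCN lies on the zero line at the high end, while S100A6 and RELN at the bottom and GAGE12J and MAGEA1 at the top have the largest differences circled.

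Several of the largest differences were in genes whose values in 1 line were under 1 scaled TPM. RELN (chr7:103471784-103989516, minus strand), which encodes the secreted neuronal guidance protein reelin, was at 170.4, 155 and 191 in BE(2)C and 0, 0.0692 and 0.160 in Kelly (log2 difference -7.33 ± 0.16, limma adjusted p = 8.01e-09). GATA4, a transcription factor of endoderm and heart, was at 97.0, 96.9 and 98.7 in BE(2)C and 0.301, 0.106 and 0.182 in Kelly (log2 -6.37 ± 0.12). Both genes were thus well expressed in every BE(2)C library and under 1 in every Kelly library. TSPYL5, a nucleosome assembly protein relative, EDIL3, an integrin ligand, and CYSLTR2, a leukotriene receptor, followed with log2 differences of -6.70, -5.99 and -5.75, and PTGER2, a prostaglandin E2 receptor, was 71.6-fold higher in BE(2)C (135 against 1.88). IL13RA2, a decoy receptor for interleukin-13 at 53.4, 79.4 and 78.2 in BE(2)C, and the lysophospholipase D gene ENPP2, at 68.1, 48.3 and 58.7, were listed at 0 in all 3 Kelly libraries.

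In the other direction, MAP7D2, a microtubule-associated protein at 69.96, 64.8 and 68.1 in Kelly, was listed at 0 in BE(2)C, as was the serine protease PRSS21. TTC9B was at 242, 207 and 262 in Kelly and 0.971, 8.39 and 1.92 in BE(2)C (log2 5.97 ± 0.46). FAM19A5 (TAFA5), a secreted neural peptide, FMOD, the matrix proteoglycan fibromodulin, and UTS2R, the urotensin receptor, were at 66.1, 69.0 and 63.1 in Kelly and under 0.400 in BE(2)C. GTSF1, a factor of the germline piRNA pathway, was at 69.3 in Kelly and 0.481 in BE(2)C. Some values for genes that most cells use were very low or unequal in 1 line: TUBA1C, an alpha-tubulin with near-identical paralogs, was at 286, 278 and 280.0 in Kelly and 8.79, 6.11 and 7.83 in BE(2)C, and the chaperone HSPA8 at 0.639, 1.91 and 3.20 and 7.38, 12.4 and 15.3. The surface glycoprotein CD99 was listed at 0 in Kelly and stood at 47.7, 71.1 and 55.9 in BE(2)C, and the insulin receptor INSR described below was near 0 in Kelly. The sources used here do not say how reads were shared among paralogs or transcripts joined into genes, so these values and those of multigene families are uncertain. ACTB (log2 -0.09, limma adjusted p = 0.439; called at -0.20 with quantile normalization) and GAPDH (log2 -0.023, adjusted p = 0.862) were not called.

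**Figure D3:**
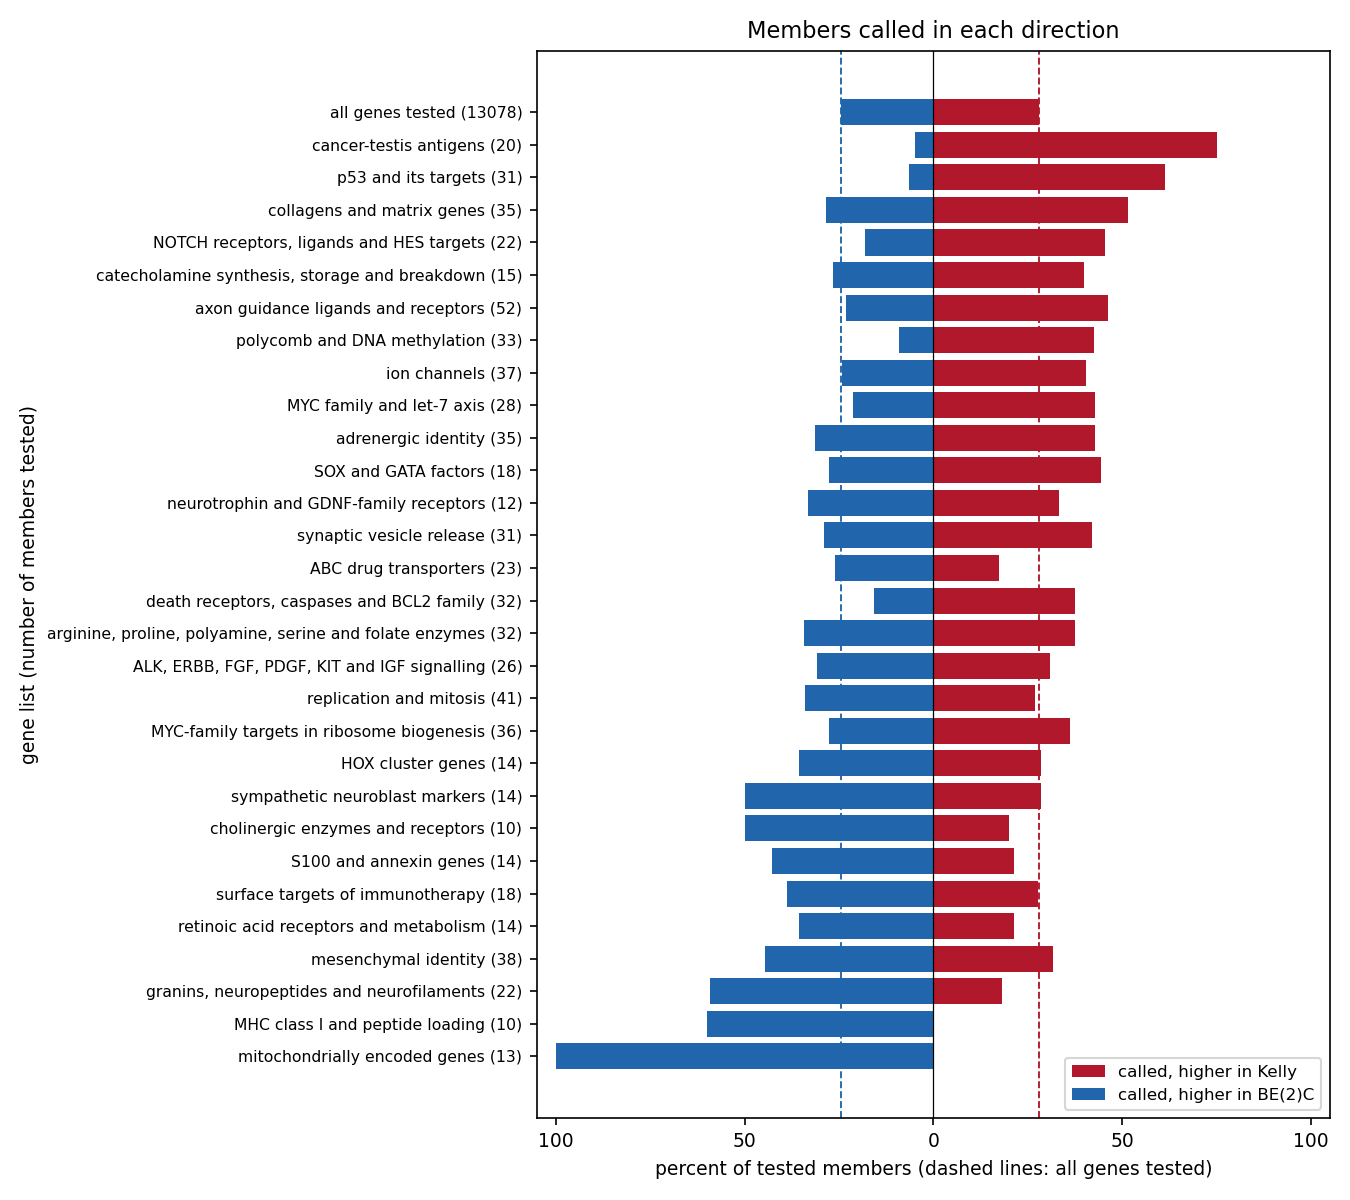
Percent of the tested members of each gene list that were called higher in Kelly (red, to the right) or higher in BE(2)C (blue, to the left), with the number of members tested in brackets and dashed lines at the shares of all 13078 genes. Cancer-testis antigens, p53 targets and matrix genes lean to Kelly, and the 13 mitochondrial genes, the MHC class I genes and the neuropeptide list lean to BE(2)C, as a description of the members that passed the filter.

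Kelly carried more RNA of several enzymes that make, store and degrade catecholamines. Of 15 tested genes of this pathway 6 were higher and 4 lower in Kelly, with a median difference of 0.48. TH (chr11:2163929-2171877, minus strand), tyrosine hydroxylase, the rate-limiting enzyme, was at 574, 439.6 and 428 in Kelly and 35.7, 45.0 and 39.2 in BE(2)C. All Kelly values lay far above all BE(2)C values, 12.03-fold on average (log2 3.55 ± 0.16, limma adjusted p = 3.16e-07). DBH (chr9:133635348-133659344, plus strand), which turns dopamine into noradrenaline, was at 2053, 1488 and 1499.5 and 404, 573 and 576, 3.25-fold higher in Kelly (log2 1.70 ± 0.16, adjusted p = 2.33e-05), with Kelly replicate 1 the highest for both enzymes. MAOA (chrX:43654907-43746824, plus strand), the monoamine oxidase that degrades them, was at 178, 156 and 163 against 2.95, 2.74 and 2.07, a 64.0-fold difference (log2 5.54 ± 0.11, adjusted p = 6.51e-09). SLC18A2, the vesicular monoamine transporter, was at 122, 85.0 and 73.5 in Kelly and 6.80, 7.01 and 5.25 in BE(2)C (14.7-fold).

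Other steps of the pathway went the other way. SLC6A2, the plasma membrane noradrenaline transporter, was 3.08-fold higher in BE(2)C, at 420.2, 509 and 515 against 155, 162 and 152 (log2 -1.61 ± 0.08, limma adjusted p = 6.07e-07). GCH1 and PTS, which make the tetrahydrobiopterin that TH needs, were lower in Kelly (log2 -1.92 ± 0.47 and -1.16 ± 0.21), whereas SPR, the last enzyme of that branch, was higher (log2 1.22 ± 0.22). DDC, the decarboxylase that follows TH, was not called (log2 0.48 ± 0.22, limma adjusted p = 0.101; with library totals 0.77 and adjusted p = 0.0122). SLC18A1, the other vesicular monoamine transporter, differed by -0.80 ± 0.27, a call lost with library totals and without BE(2)C replicate 2 or 3 or Kelly replicate 3. The higher synthetic and degrading enzymes of Kelly therefore stood beside a lower reuptake transporter.

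The transcription factors that hold adrenergic identity were expressed in both lines and differed much less than these enzymes. Of 35 tested adrenergic genes 15 were higher and 11 lower in Kelly, with a median of 0.25. HAND2 was at 1081 ± 42.3 in Kelly and 983 ± 21.4 in BE(2)C and just missed the threshold (log2 0.14 ± 0.05, limma adjusted p = 0.0507). It was called with library totals (0.46), with quantile normalization (0.34), with a filter at 5 (0.14) and without BE(2)C replicate 1 (0.15) or Kelly replicate 2 (0.17). GATA3 was at 375 ± 47.8 and 296 ± 13.2 (log2 0.33 ± 0.09, adjusted p = 0.00938, a call lost with the values as deposited). PHOX2A, a homeobox factor of early sympathetic precursors, was lower in Kelly (log2 -0.34 ± 0.09), a call lost with library totals and with quantile normalization. In size none of these 3 differences reached that of the most unequal spike-in, with or without centring.

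A few members of the list were much further apart. LMO1 (chr11:8224304-8268716, minus strand), a LIM-only cofactor of the adrenergic core circuit and a neuroblastoma susceptibility gene, was at 152, 129.9 and 126 in Kelly and 2.26, 6.56 and 4.77 in BE(2)C. Its levels in the lines were far apart, with a mean ratio of 30.04 (log2 4.71 ± 0.26, limma adjusted p = 8.81e-07). The neuroendocrine factor INSM1 (22.6 against 3.91) and the chromatin organizer SATB1 (51.6 against 9.70) were also higher in Kelly, by 2.37 and 2.28 on the log2 scale. SOX4 (log2 -1.49) and the microtubule regulator STMN2 (log2 -1.19) were lower. CARTPT, a neuropeptide precursor, was at 38.5, 7.60 and 15.7 in Kelly and listed at 0 in BE(2)C.

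**Figure D4:**
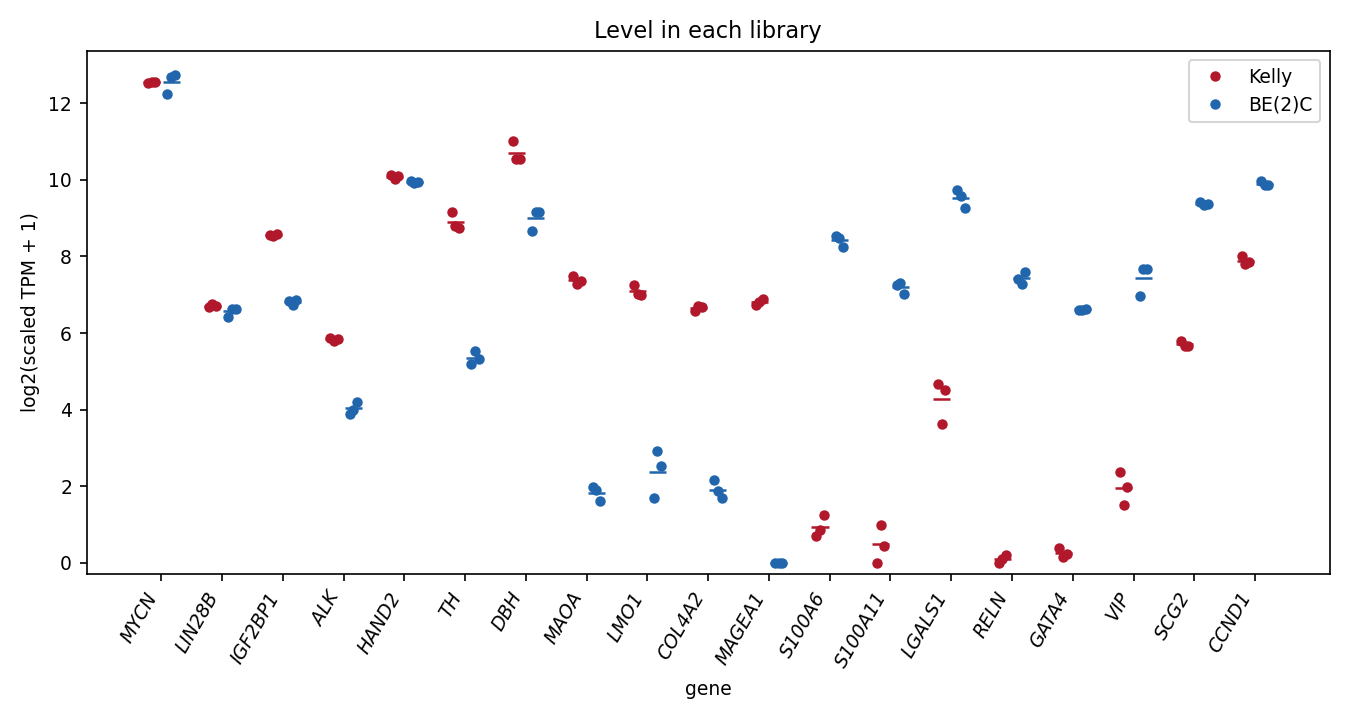
Level of genes named in the text in each of the 3 Kelly (red) and 3 BE(2)C (blue) libraries, log2(scaled TPM + 1), with a bar at each line's mean. MYCN is the one gene of the plot whose groups overlap; TH, MAOA, LMO1, COL4A2 and MAGEA1 are higher in Kelly, and S100A6, LGALS1, RELN, VIP and SCG2 are higher in BE(2)C.

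BE(2)C in turn carried more RNA of many granins, neuropeptides and neurofilaments. Of 22 tested genes 13 were lower and 4 higher in Kelly, and the median was -0.86. SCG2 (chr2:223596940-223602503, minus strand), the granin secretogranin II of dense-core vesicles, was at 686, 652 and 656 in BE(2)C and 54.7, 49.99 and 49.7 in Kelly. The libraries of each line lay close together while the lines were 12.9-fold apart (log2 -3.67 ± 0.06, limma adjusted p = 4.25e-09). VGF (chr7:101162509-101165593, minus strand), a nerve growth factor inducible peptide precursor, was at 290.0, 399 and 409 against 26.8, 27.4 and 28.0, 13.4-fold higher in BE(2)C (log2 -3.68 ± 0.12, adjusted p = 4.77e-08). The vasoactive peptide VIP (chr6:152750798-152759765, plus strand) was at 124, 202 and 203 against 4.19, 1.85 and 2.93 (log2 -5.48 ± 0.25). ADCYAP1, which encodes its relative PACAP, was at 104, 82.5 and 69.8 against 1.24, 1.36 and 3.91 (log2 -4.85 ± 0.30).

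NPY, the sympathetic cotransmitter, was higher in every BE(2)C library but with a wide spread, at 71.7, 229 and 209 against 24.2, 16.9 and 26.2 (log2 -2.72 ± 0.38, limma adjusted p = 0.000295). Somatostatin went the other way: SST was at 151, 97.6 and 95.3 in Kelly and 5.53, 5.08 and 6.20 in BE(2)C, 20.5-fold higher in Kelly (log2 4.10 ± 0.20). Intermediate filaments went in both directions. NES, the nestin of neural progenitors (252 against 46.3), and NEFH, the heavy neurofilament (561 against 118), were higher in Kelly, and the light and medium chains NEFL (log2 -1.60) and NEFM (log2 -1.10), peripherin PRPH (log2 -1.34) and vimentin VIM (log2 -2.70) were lower. CHGA, the most used granin marker, was at 2597 and 2349 and was not called (with library totals 0.47 and called), while CHGB was lower (log2 -0.88).

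Cholinergic genes, which some sympathetic neurons switch to, also included large differences toward BE(2)C: 5 of 10 tested members were lower and 2 higher in Kelly, with a median of -0.13. SLC18A3, the vesicular acetylcholine transporter, was at 103 ± 3.74 in BE(2)C and 17.4 ± 1.71 in Kelly (5.94-fold, -2.51 ± 0.10), and the cholinesterase BCHE was at 131 against 21.1. The nicotinic receptor subunits CHRNA3 (log2 -0.36) and CHRNB2 (log2 -0.28) differed little, and with library totals the CHRNA3 call was lost and the CHRNB2 difference changed sign, to 0.044.

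Some mesenchymal genes were strongly expressed in BE(2)C and near 0 in Kelly. Of 38 tested members of a mesenchymal list 17 were lower and 12 higher in Kelly, with a median of -0.33, and PRRX1, YAP1, WWTR1, RUNX1 and RUNX2 stayed under the filter. S100A6 (chr1:153534599-153536244, minus strand), a calcium-binding protein of mesenchymal and Schwann-like cells, was at 370.0, 354 and 305 in BE(2)C and 0.618, 0.803 and 1.39 in Kelly, 366-fold apart (log2 -7.49 ± 0.15, limma adjusted p = 6.51e-09). Its neighbour S100A11 (chr1:152032506-152047907, minus strand) was at 151, 159 and 128 and 0, 0.993 and 0.366 (log2 -6.71 ± 0.26). LGALS1 (chr22:37675608-37679806, plus strand), the lectin galectin-1, was at 847, 757 and 619 and 24.4, 11.4 and 21.8 (38.6-fold, -5.25 ± 0.24). SH-SY5Y had 60.6 ± 4.52 scaled TPM of S100A6. BE(2)C thus expressed the 3 genes strongly in every library. Fibroblast and endothelial markers summed to 48.3 to 57.7 scaled TPM in Kelly and 66.1 to 106 in BE(2)C. Of 8 tested, 3 were lower in Kelly, 1 was higher and 4 were not called. DCN, named below as a mesenchymal gene, is among these markers, and PECAM1, VWF, CDH5 and FAP were under 1 in all 6 libraries. The part of these markers in the mesenchymal differences was not tested.

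The surface enzyme NT5E (CD73; 25.3-fold), the neural crest factor SNAI2 (22.2, 19.6 and 19.2 against 0, 2.18 and 1.09), the annexin ANXA2 (68.0 against 6.55), the glycoprotein THY1 (151 against 22.1) and the proteoglycan DCN (12.3 against 0.906) were higher in BE(2)C too. Other mesenchymal genes were higher in Kelly: the cadherin CDH11 was at 54.8, 61.2 and 66.4 against 2.95, 6.24 and 3.34 (14.6-fold, 3.63 ± 0.22), and the hyaluronan receptor CD44 at 10.97 against 3.47. Of 14 tested S100 and annexin genes 6 were lower and 3 higher in Kelly (median -0.17; 5 higher without Kelly replicate 2), and S100A4 and S100B were listed at 0 in all Kelly libraries.

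The S100A6 promoter is printed because the gene stood near 1 scaled TPM in Kelly and far higher in BE(2)C. It spans chr1:153535942-153536241 on the minus strand (RefSeq, GRCh38.p14; 250 bases before to 50 after the start), with each CG dinucleotide in capitals, the site that DNA methylation marks. It holds 31 CG dinucleotides, against a median of 14 over the 35116 promoters of the table, of which 20.7% hold as many. Methylation was not measured.
S100A6: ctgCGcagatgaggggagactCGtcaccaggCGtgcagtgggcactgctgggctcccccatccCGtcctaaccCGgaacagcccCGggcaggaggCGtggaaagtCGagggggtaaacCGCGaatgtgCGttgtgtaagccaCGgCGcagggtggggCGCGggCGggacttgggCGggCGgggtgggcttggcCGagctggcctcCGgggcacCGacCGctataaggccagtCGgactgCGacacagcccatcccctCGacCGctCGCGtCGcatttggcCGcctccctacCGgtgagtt

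Matrix genes leaned the other way, toward Kelly. Of 35 tested collagens, laminins and other matrix genes 18 were higher and 10 lower in Kelly, with a median of 0.62; 12 were at least 4-fold higher and 1 at least 4-fold lower. COL4A2 (chr13:110305812-110513209, plus strand) and COL4A1 (chr13:110148963-110307233, minus strand), the basement membrane collagen IV chains that are transcribed from a shared region in opposite directions, were both far higher in Kelly. COL4A2 was at 94.8, 103 and 102 in Kelly and 3.52, 2.67 and 2.24 in BE(2)C (35.6-fold, 4.74 ± 0.13, limma adjusted p = 2.57e-08). COL4A1 was at 20.1, 21.97 and 24.3 and 1.01, 0.762 and 0.391 (30.7-fold, 3.76 ± 0.17, adjusted p = 3.43e-07). No BE(2)C library came near a Kelly library for either gene. LAMA1 (chr18:6941744-7117814, minus strand), a laminin chain of embryonic basement membranes, was at 51.9, 46.9 and 48.2 in Kelly and listed at 0 in BE(2)C.

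Their common promoter is shown because both genes differed in the same direction. The window of COL4A2, chr13:110307034-110307333 on the plus strand (RefSeq, GRCh38.p14), overlaps that of COL4A1 by 226 bases. Capitals mark a CCAAT box and a GC box, searched as CCAAT and GGGCGG on both strands; these letters occur in 34.6% and 45.0% of all promoters in the table, so their presence is common.
COL4A2: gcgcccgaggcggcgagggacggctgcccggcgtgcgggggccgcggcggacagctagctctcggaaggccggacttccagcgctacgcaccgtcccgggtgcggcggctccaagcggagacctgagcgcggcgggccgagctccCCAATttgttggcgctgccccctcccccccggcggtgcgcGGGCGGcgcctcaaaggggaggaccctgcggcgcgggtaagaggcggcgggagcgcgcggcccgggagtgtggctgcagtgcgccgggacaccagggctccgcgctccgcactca

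Collagen VI chains COL6A1 (127 against 26.8), COL6A2 (64.5 against 10.9) and COL6A3 (log2 2.46) and the fibulins FBLN1 (176 against 30.7) and FBLN2 (log2 3.05) were higher in Kelly as well, as was SPON1, the axon-guidance protein spondin (log2 3.51). The gelatinase MMP2 (455 ± 44.3 in BE(2)C against 126 ± 6.74, -1.85 ± 0.08), the laminin chain LAMA4 (log2 -2.004) and the protease inhibitor TIMP1 (log2 -1.63) were lower.

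Cancer-testis antigens, germline genes on the X chromosome for the most part that tumours can switch on, had a higher summed level in Kelly. Over the 55 genes of the list of 67 that were in the table, the sum ran from 597 to 624 scaled TPM in Kelly and from 131 to 175 in BE(2)C. The filter was passed by 20, of which 15 were higher and 1 lower in Kelly; several of these were at 0 in BE(2)C and could pass only through a line where they were high, so the count is a description and supports nothing. MAGEA1 (chrX:153179285-153183880, plus strand) was at 106, 111 and 118 in Kelly and GAGE12J (chrX:49322057-49329384, plus strand) at 137, 106 and 132, and both had a value of 0 in every BE(2)C library. GAGE1, GAGE2A, MAGEA3, MAGEA6, MAGEA12 and PAGE1, at means of 6.15 to 24.7 in Kelly, were listed at 0 in BE(2)C too. MAGEA10 (chrX:152133310-152138578, minus strand) was at 82.6, 78.1 and 80.6 in Kelly and 0.170, 0.293 and 0.238 in BE(2)C (log2 6.05 ± 0.16, limma adjusted p = 2.22e-08). PRAME, on chromosome 22, was 23.01-fold higher in Kelly (29.4 ± 9.49 against 1.28 ± 0.190).

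MAGEB2 was the exception, at 5.95, 4.07 and 2.38 in BE(2)C and listed at 0 in Kelly. Members of the GAGE and MAGEA families are near-identical, so which copy carries the reads is uncertain. The GAGE12J promoter, at chrX:49321787-49322086 on the plus strand (RefSeq, GRCh38.p14), shows this: it equals that of GAGE2A at all 300 positions. Capitals mark its 13 CG dinucleotides.
GAGE12J: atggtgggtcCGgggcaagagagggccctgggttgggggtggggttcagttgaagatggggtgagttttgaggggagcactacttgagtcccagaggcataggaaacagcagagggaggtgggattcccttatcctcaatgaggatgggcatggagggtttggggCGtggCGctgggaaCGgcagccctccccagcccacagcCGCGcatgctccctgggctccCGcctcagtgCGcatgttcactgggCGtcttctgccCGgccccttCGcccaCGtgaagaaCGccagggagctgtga

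Genes known as p53 targets were mostly higher in Kelly: 19 of 31 tested were higher and 2 lower, with a median of 0.69. PHLDA3 (chr1:201464383-201469237, minus strand), an inhibitor of AKT that p53 induces, was at 60.1, 57.5 and 48.3 in Kelly and 0.345, 0.595 and 0.605 in BE(2)C (107-fold, 5.21 ± 0.14, limma adjusted p = 2.48e-08). CDKN1A (chr6:36676460-36687339, plus strand), the cell cycle inhibitor p21, was at 105.5, 67.4 and 68.7 and 12.2, 17.1 and 15.2, 5.43-fold higher in Kelly without overlap (log2 2.34 ± 0.18). TNFRSF10B, a death receptor for TRAIL, was at 67.6, 70.4 and 88.4 and 2.99, 4.55 and 3.06 (21.4-fold). The ectodysplasin receptor EDA2R (log2 4.14), CYFIP2 (log2 2.40), ZMAT3 (log2 1.59) and the death effector BAX (93.9 against 44.9) followed, and MDM2, the p53 ubiquitin ligase, differed little (log2 0.35 ± 0.12, limma adjusted p = 0.0398, above the threshold when any 1 library of these lines but BE(2)C replicate 1 was left out).

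CDKN2A (chr9:21967753-21995301, minus strand), whose locus encodes the p16 inhibitor and the MDM2 antagonist ARF, stood out in BE(2)C: it was at 126, 115 and 109.6 against 4.14, 4.998 and 4.79 in Kelly (25.2-fold, -4.39 ± 0.13, limma adjusted p = 3.78e-08). Of 32 death receptor, caspase and BCL2-family genes 12 were higher and 5 lower in Kelly, with a median of 0.08. BOK (log2 2.69), HRK (log2 2.08) and the effector caspase CASP6 (log2 2.66) were higher, and BCL2, the survival factor, was at 43.5 in Kelly and 19.7 in BE(2)C.

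MHC class I molecules show peptides from inside the cell to T cells. Only 10 of 22 genes of class I presentation passed the filter; 6 of these were lower in Kelly, a count that leaves out the members too low to test. B2M (chr15:44711487-44718877, plus strand), the light chain of class I molecules, was at 13.3, 17.4 and 12.1 in Kelly and 24.3, 40.1 and 30.1 in BE(2)C (log2 -1.08 ± 0.26, limma adjusted p = 0.00711). The chaperone CANX (log2 -1.04), the tapasin relative TAPBPL (log2 -2.11) and the interferon regulator IRF2 (log2 -0.94) were lower in Kelly too. TAP1, PSMB8 and PSMB9 were listed at 0 in all 6 libraries.

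Receptor genes differed one by one rather than as a group, with 8 of 26 tested members of a receptor kinase list higher and 8 lower in Kelly (median -0.02). ALK (chr2:29192774-29921566, minus strand), the receptor kinase mutated in familial neuroblastoma, was at 57.8, 54.8 and 56.3 in Kelly and 13.9, 14.99 and 17.4 in BE(2)C (3.65-fold, 1.81 ± 0.09, limma adjusted p = 6.3e-07). Its relative LTK went the other way (21.2 in BE(2)C against 0.554), and of the heparin-binding growth factors described as ALK ligands, MDK was higher in Kelly (203 against 104) and PTN higher in BE(2)C (174 against 28.3). MET, the hepatocyte growth factor receptor, was at 10.1 ± 0.219 in Kelly and 0.283 ± 0.223 in BE(2)C, 35.7-fold apart. The insulin receptor INSR (chr19:7112255-7294034, minus strand) was at 14.8, 15.7 and 16.9 in BE(2)C and 0.0159, 0 and 0.0491 in Kelly (log2 -4.04 ± 0.15), a value near 0 that is uncertain as said above. EGFR (log2 -1.19), ROR2 (log2 -2.68) and IGF1R (log2 -0.68) were lower in Kelly, and FGFR4 was higher (log2 1.203).

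Among neurotrophin and GDNF-family genes 4 of 12 were higher and 4 lower in Kelly (median 0.19). GFRA1, the GDNF co-receptor, was at 25.3 in Kelly and 0.0116 in BE(2)C (log2 4.70 ± 0.15), while its signalling partner RET (218 against 116) and the ligands GDNF (14.8 against 1.52) and NRTN (10.2 against 0.285) were higher in BE(2)C.

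NOTCH pathway genes leaned to Kelly, with 10 of 22 higher and 4 lower and a median of 0.49. MFNG, a glycosyltransferase that tunes NOTCH receptors, was at 38.9, 27.4 and 28.2 in Kelly and 0.573, 0.257 and 0 in BE(2)C (log2 4.68 ± 0.22), and its relative LFNG at 58.0 against 10.8. The ligands JAG2 (log2 2.53) and DLL1 (log2 1.70) were higher in Kelly too. Of the transcriptional targets, HEYL was 46.7-fold higher in Kelly (17.9 ± 1.03 against 0.384 ± 0.0411), whereas HES1 (chr3:194136145-194138732, plus strand) was at 13.9, 21.2 and 23.5 in BE(2)C and 0.262, 1.35 and 1.18 in Kelly (21.0-fold, -3.43 ± 0.30). The 2 NOTCH targets were thus highest in different lines.

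HOX transcripts came from the HOXC and HOXD clusters: of 39 genes listed, 19 were at 0 in all 6 libraries, none of the HOXA and HOXB genes reached the filter, and 14 from HOXC and HOXD were tested, 4 higher and 5 lower in Kelly. HOXC10 was at 20.04 ± 2.99 in BE(2)C and 0.308 ± 0.151 in Kelly (65.0-fold), and HOXD13, the most posterior gene of its cluster, at 47.4 ± 6.50 in Kelly and 3.77 ± 0.446 in BE(2)C (12.6-fold). HOXD9 (log2 1.499) was higher and HOXC6 (log2 -0.95) lower in Kelly, and HOXC11 was listed at 0 there. Of 18 SOX and GATA factors 8 were higher and 5 lower (median 0.22); beside GATA4, the endothelial factors SOX18 (28.2 against 2.22) and SOX7 (log2 -2.46) were higher in BE(2)C and SOX12 in Kelly (142 against 60.7). Polycomb and DNA methylation genes were called higher in Kelly in 14 of 33 cases and lower in 3 (median 0.36), among them PHC1 (log2 1.31), CBX2 (190.2 against 85.4) and EZH1 (log2 0.97); the core subunits EZH2, SUZ12 and EED were not called (SUZ12 higher in Kelly with library totals, 0.31).

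Genes of neurite growth and excitability differed in both directions. Of 52 axon guidance genes 24 were higher and 12 lower in Kelly (median 0.46). The secreted SEMA3C (17.0 in BE(2)C against 1.26), the semaphorin receptor PLXNA4 (34.3 against 3.65) and the ephrin EFNB2 (94.8 against 13.2) were higher in BE(2)C. The ephrin receptors EPHA7 (log2 2.89) and EPHB3 (104 against 17.9) and the repellents SLIT1 (log2 2.49) and SLIT2 (log2 2.39) were higher in Kelly.

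Of 37 ion channel genes 15 were higher and 9 lower in Kelly (median 0.34). KCNT1, a sodium-activated potassium channel, was at 32.8 in BE(2)C and 0.0134 in Kelly (log2 -5.03 ± 0.28), and the sodium channel subunit SCN3B at 79.5 against 11.9. The sodium channel SCN1A (20.3 against 0.432) and the N-type calcium channel CACNA1B (log2 2.65) were higher in Kelly. In the release machinery, 13 of 31 genes were higher and 9 lower (median 0.18), and the vesicle calcium sensors were split, with SYT2 (42.7 against 1.33) and SYT7 (log2 2.46) higher in Kelly and SYT1 (205 in BE(2)C against 40.3) lower.

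Among 18 genes of surface immunotherapy targets, with enzymes of ganglioside synthesis counted in, 5 were higher and 7 lower in Kelly (median -0.17). The ganglioside synthase ST3GAL5 (log2 -2.51), the adhesion molecules MCAM (log2 -2.24) and L1CAM (413 against 197) and CD248 (log2 -2.06) were lower. The GD2 synthase B4GALNT1 was not called, and neither were the targets DLL3 and GPC2, which library totals put higher in Kelly by 0.43 and 0.77; GPC2 was also called without BE(2)C replicate 2 (0.69, limma adjusted p = 0.0108).

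Cell cycle and biosynthesis lists were close to the background and depended on the scaling. Of 41 replication and mitosis genes 11 were higher and 14 lower in Kelly (median -0.03), which became 20 and 3 with library totals. CCND1 (chr11:69641087-69654474, plus strand), cyclin D1, was at 994, 939 and 940.3 in BE(2)C and 258, 221 and 230.0 in Kelly (4.05-fold, -2.02 ± 0.07, limma adjusted p = 5.93e-08). E2F2 (64.1 against 23.7) and CCNE1 (log2 1.05), the factors of the next step into S phase, were higher in Kelly, and CDK4, the partner of cyclin D1, was lower (log2 -0.80, a call lost with library totals and without BE(2)C replicate 2 or Kelly replicate 2). Of 36 MYC-family targets in ribosome biogenesis 13 were higher and 10 lower (median -0.05), with NOP56 (log2 1.33) and BOP1 (log2 1.05) higher and NPM1 (3317 against 1807) lower.

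In metabolism, 12 of 32 arginine, polyamine, serine and folate enzymes were higher and 11 lower in Kelly (median 0.06). GLDC (chr9:6532464-6645783, minus strand), the decarboxylase of the glycine cleavage system, was at 22.5 ± 2.34 in Kelly and 0.281 ± 0.0577 in BE(2)C (79.9-fold), and the serine hydroxymethyltransferase SHMT1 was higher in Kelly too (log2 1.67). ASS1 (chr9:130444929-130501274, plus strand), the argininosuccinate synthase that lets cells make arginine, was at 673 ± 101 in BE(2)C and 238 ± 13.6 in Kelly (log2 -1.49 ± 0.11), whereas the arginase ARG2 was higher in Kelly (log2 1.54). The polyamine acetyltransferase SAT1 was lower (log2 -1.95). The drug efflux pump ABCB1 was 2.59-fold higher in BE(2)C (97.8 ± 12.7 against 37.7 ± 3.10), while 4 of 23 ABC transporters were higher and 6 lower in Kelly (median 0.10). Of 14 retinoic acid genes 3 were higher and 5 lower (median -0.22).

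The 13 mitochondrially encoded genes were all lower in Kelly, with a median of -1.18 and a range from -0.50 for MT-ND3 to -1.501 for MT-ND4L. Within BE(2)C they were lower in replicate 1 than in replicates 2 and 3, the pattern of the mitochondrial share. With quantile normalization 3 were higher and 7 lower in Kelly, MT-ND3 among the higher ones (0.50). The MT-ND3 call was also lost with library totals and without BE(2)C replicate 2 or 3 or Kelly replicate 2 or 3. Leaving these genes out of the totals and factors shifted the median of all genes by -0.015, a shift that the factors, computed again, keep small. Called genes at least 4-fold apart then numbered 1013 (635 higher and 378 lower in Kelly). The part of the mitochondrial genes in the other gene differences was not tested.

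Markers of other cells were few. The 14 sympathetic neuroblast markers summed to 8586 to 10162 scaled TPM in Kelly and 7916 to 8829 in BE(2)C, with 4 higher and 7 lower in Kelly. Both lines thus carried RNA of sympathetic neuroblast markers. Whether each library came from the line in its label was not tested. Leukocyte markers summed to 20.6 to 27.1 in Kelly and 18.2 to 20.0 in BE(2)C; 4 of 13 passed the filter, and CD3D, CD3E, MS4A1, ITGAM, FCGR3A and TYROBP were listed at 0 in all 6 libraries. Of the 13 fibroblast and endothelial markers 8 were tested, 3 of them lower in Kelly and 1 higher, which became 5 lower without BE(2)C replicate 1 and 2 higher without BE(2)C replicate 2. Glial markers summed to 25.8 to 54.7 and 41.2 to 52.2, with FABP7 and CDH19 at 0, and epithelial, hepatic and erythroid markers to 6.90 to 11.7 and 5.15 to 7.34, with ALB, AFP and HBB at 0. In such bulk RNA fewer cells of a type and less RNA per cell cannot be told apart.

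Along the chromosomes, the lines differed by stretches of neighbouring genes. The 12960 tested genes with a known position were sorted into windows of 10 Mb, and 270 windows held at least 15 of them. Over these windows the median log2 difference ran from -1.15 to 0.81, below -0.5 in 17 windows and above 0.5 in 29. These counts depended on the scaling, with 7 below and 82 above with library totals, and 14 below and 0 above with the values as deposited, where the highest median was 0.48. The 6 lowest and 6 highest windows kept their direction under both, but not their size. With the median of all genes subtracted, 20 windows lay below -0.5 and 24 above 0.5 with the main scaling. The counts were then 18 and 23 with library totals, and 13 and 1 with the values as deposited. With the values as deposited the 6 lowest lay between -0.83 and -0.67, while the 6 highest lay between 0.27 and 0.48, among them chromosome 18 from 10 to 20 Mb (0.27 in place of 0.70) and chromosome 3 from 0 to 10 Mb (0.31 in place of 0.68) and from 20 to 30 Mb (0.32 in place of 0.81). Copy number was not measured, so gene dosage and regulation cannot be told apart here. In size every window median lay within the largest spike-in difference with centring (1.2). Without centring that difference was 0.83, and the lowest windows exceeded it in size. The share of these medians that is technical was not tested.

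**Figure D5:**
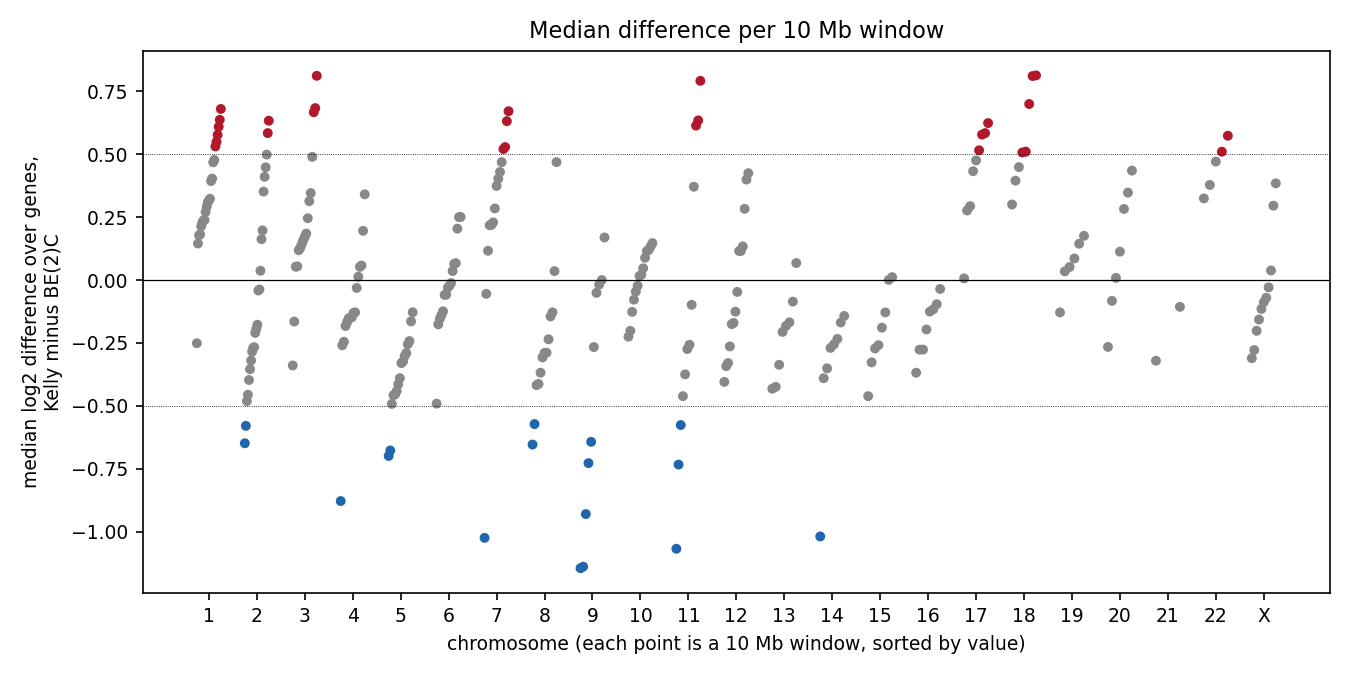
Median log2 difference (Kelly minus BE(2)C) of the tested genes in each of 270 windows of 10 Mb, by chromosome and sorted by value within it, with dotted lines at 0.5 and -0.5. The 17 blue windows below -0.5 include 5 on chromosome 9, and the 29 red ones above 0.5 include several on chromosomes 1, 3, 7, 11, 17 and 18.

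Chromosome 9 held the lowest stretch. Between 90 and 100 Mb 44 of 59 genes were lower and 6 higher in Kelly (median -1.15), between 100 and 110 Mb 16 of 26 were lower and 3 higher (-0.93), and between 110 and 120 Mb 27 of 37 were lower and 2 higher (-1.14). Its genes included the WNT receptor ROR2, the sugar transporter SLC35D2 (16.8 in BE(2)C against 0.115), the cathepsin CTSV (log2 -2.55), the condensin subunit SMC2 (log2 -1.39) and the copper transporter SLC31A1 (log2 -2.16). The let-7a, let-7f and let-7d cluster printed above lies in the first of these windows. Within 1 Mb of it 9 of 12 tested genes were lower and 1 higher in Kelly, with a median of -1.11.

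Chromosome 11 between 120 and 130 Mb, toward the end of the long arm where the second let-7a locus lies, was lower in Kelly in 32 of 45 genes and higher in 6 (median -1.07). NRGN, the calmodulin-binding neurogranin (48.9 in BE(2)C against 3.05), and the hedgehog co-receptor CDON (125 against 14.6) were among those lower in Kelly. The keratinocyte gene TRIM29 went against most genes of the window, at 145 in Kelly and 4.75 in BE(2)C. Within 1 Mb of that locus 4 of 6 tested genes were lower and 2 higher. Chromosome 7 from 100 to 110 Mb, which holds VGF and RELN, was lower in 63 of 91 genes and higher in 1 (-1.03), and chromosome 14 from 100 to 110 Mb, which holds DLK1 and RTL1, lower in 42 of 56 and higher in 6 (-1.02). In that last window the imprinted pair went against most of the genes, with RTL1 at 158 in Kelly and 14.8 in BE(2)C.

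On the other side, chromosome 18 leaned to Kelly along its length: 110 of its 187 tested genes were higher and 8 lower (median 0.64). Its windows from 0 to 10 Mb (22 of 32 higher, 2 lower, median 0.81), from 10 to 20 Mb (12 of 20 higher, 2 lower, 0.70) and from 20 to 30 Mb (18 of 22 higher, 0.81) were among the 6 highest, with LAMA1, the SRC-family kinase YES1 (30.1 against 1.40), GREB1L (log2 2.74) and the cohesin acetyltransferase ESCO1 (log2 1.40). Chromosome 11 from 40 to 50 Mb had 31 of 46 genes higher and 5 lower in Kelly (0.79). Chromosome 3 had 2 of the 6, from 0 to 10 Mb (16 of 30 higher, 1 lower, 0.68) and from 20 to 30 Mb (10 of 16 higher, 1 lower, 0.81), with the ubiquitin-conjugating enzyme UBE2E2 (36.4 against 2.38) and the oxytocin receptor OXTR (log2 1.92). Near the let-7g locus on chromosome 3, 16 of 36 genes within 1 Mb were higher and 1 lower in Kelly, with a median of 0.49. The genes within 1 Mb of the other let-7 and miR-98 loci had smaller medians or were few: 0.27 on chromosome 22 (7 of 16 higher, 3 lower), 0.11 on chromosome 19 (6 of 31 higher, 4 lower) and 0.041 on chromosome X (3 of 16 higher, 4 lower). On chromosome 12 the median was -0.67 over 3 genes (2 lower), and on chromosome 21 it was 0.36 over 2 genes (1 higher). The genes beside the let-7 loci thus had no common direction.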

How the data were processed

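The authors deposited a single table of log10 values for 9 libraries, which the values themselves show to be log10(TPM + 1); HISAT 0.1.6, Salmon 0.3.2 and the build GRCh38 stand in the submitters' processing notes without a role. The sources used here do not say how transcripts were joined into genes. Of 19837 rows, 92 spike-ins, 11 reporter or selection markers and 28 rows with a date in place of a symbol were left out, and the number of value columns not used was 0. The log was undone and the 19706 gene rows were rescaled to a common total and divided by a trimmed-mean factor (30% of log ratios and 5% of levels trimmed, genes at 1 or more). Back-transformed library totals were 966592 to 980009; depth is unknown, so no counting error can be given.

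Genes that reached 1 in 3 or more libraries entered limma 3.58.1 (R 4.3.3) with its trend option on log2(scaled TPM + 1), 1 fit of all 9 libraries, two-sided, Benjamini-Hochberg adjusted over 13078 genes; called means under 0.05. The script was tested on simulated data. Spike-ins whose mean reached 10 TPM were centred on the median spike-in of each library and tested the same way. Shared replicate numbers did not pair the libraries (correlation of deviations -0.05, -0.03 and -0.03). Positions are from GENCODE 29, matched by symbol for 18678 rows and by another symbol for 552, with 476 unmatched; windows and whole chromosomes were used, not arms.

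The comparison and the gene lists, written from general knowledge, were chosen with earlier results of these data known. A rule named MYCN, MYC, LIN28B, IGF2BP1, IGF2, ALK, HAND2, GATA3 and TH, the 15 largest called differences in each direction at 10 or more scaled TPM, up to 6 called members of each list at 5 or more, and up to 4 genes of each described window. Other genes named for their known role were chosen after their values were seen. A few genes under the rule are not reported here. Alternatives covered scaling, pseudocount, filter, the libraries in the fit, a replicate block and leaving out each library. Python 3.11.15, numpy 2.4.6, pandas 2.3.3, scipy 1.17.1 and matplotlib 3.10.9 did the rest.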

Additional observations from a re-analysis of the deposited data

How the results depend on the processing

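All differences were computed again under the other settings. Mitochondrial genes left out of the totals changed the call of none of the 275 named genes that had been called. The median of all genes shifted by -0.015, which the factors, computed again, keep small, and 1013 called genes were at least 4-fold apart. With library totals 5179 genes were higher and 1792 lower in Kelly, the calls of 12 named genes were lost, MYCN became 0.32, and CHRNB2 and SUZ12 changed sign, to 0.044 and 0.31. With quantile normalization MYCN became 0.62 and MT-ND3 changed sign, to 0.50. At least 4-fold differences numbered 1538 (964 higher and 574 lower) with a pseudocount of 0.1, and 168 (78 and 90) with the values as deposited, where spike-ins fill most of the total and the pseudocount weighs more. The mitochondrial difference was -2.59 percentage points as a share of the deposited total, and 35 spike-ins were called among those with a mean of at least 100 TPM.

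With a filter at 5, members called higher numbered 0 in the cholinergic list, 2 in the neurotrophin, 9 in the ion channel and 1 in the retinoic acid list, and members called lower 3 in the S100 and 0 in the cancer-testis list, since fewer members are tested. With library totals the members lower were 3 among death genes, 5 among metabolic enzymes, 2 among ribosome genes and 1 among polycomb genes, and the members higher 8 among ABC transporters and 8 among surface targets; the neuroblast markers became 7 higher and 4 lower.

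Leaving out 1 library at a time gave 6228 to 6649 genes called (3339 to 3530 higher, 2886 to 3119 lower), 889 to 947 at least 4-fold apart (553 to 601 higher, 332 to 355 lower), a MYCN difference of -0.16 to 0.091, 49 to 55 spike-ins called and a mitochondrial difference of -16.0 to -10.6 points. The replicate block gave 6633 genes called (3509 higher, 3124 lower), 911 of them at least 4-fold apart, and moved none of these counts by over 1.5 times; of the list counts it moved that of leukocyte markers higher in Kelly, from 1 to 0, and among the genes the text names it ended the calls of MYC, MDM2, MT-ND3 and CORO1A, all of which other settings ended too. The depth of the libraries is unknown, so how far it limits the low values cannot be given.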

Other observations

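Among 11 reporter and selection marker rows of the table, the ampicillin resistance gene stood at 147 to 199 deposited TPM in all 9 libraries of the series, 147 to 164 in Kelly and 148 to 175 in BE(2)C, and the other marker rows were at most 0.189.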
